A study of Mus musculus with 6 samples.

Results

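The 9 genes described here mark the proximal tubule of the kidney and were read in RNA sequencing of sorted mouse kidney epithelial cells: Lrp2, Cubn, Slc34a1, Slc5a12, Slc22a8, Slc27a2, Fbp1, Pck1 and Ggt1. They were taken by symbol, for their roles in endocytosis, transport and gluconeogenesis, and all 9 were found among the 16095 genes analysed. The cells came from mice in which the shelterin gene Terf1 (protein TRF1) was either intact (Trf1+/+, control) or flanked by loxP sites on both alleles (Trf1lox/lox, Terf1_flox), with 3 libraries in each group. Every mouse also carried a Cre recombinase that tamoxifen switches on (CreERT2), under the Ksp-cadherin promoter, and a KFP allele (Cre+/t, KFP+/t). Males and females entered at 6 to 8 weeks of age, and tamoxifen went into the peritoneum 3 times per week over 8 weeks in both groups, so no group without Cre or without tamoxifen was compared. Kidneys were dissociated with enzymes, and cells were isolated by flow cytometry on EpCAM antibody staining and on the KFP signal. Ksp-cadherin is best known from the distal nephron and collecting duct, so the Cre driver does not represent the whole tubule.

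The proximal tubule is the first segment behind the glomerulus and takes back most of what is filtered. Its cells swallow filtered proteins through the receptors megalin and cubilin, move phosphate, sugars, monocarboxylates and organic anions through solute carriers, burn fatty acids, and make glucose. The transcription factor HNF4A is known to maintain this programme.

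The values are normalized counts, that is, reads per gene scaled by 1 factor per library and not by gene length. The libraries held between 13582140 and 17680986 reads, and 1 read was worth between 0.789 and 1.09 normalized counts. Terf1 held 529.6, 486.1 and 663.9 normalized counts in the control libraries and 62.0, 24.6 and 25.3 in the Terf1_flox libraries, in the direction the labels give. Its adjusted p was 0.0814 in limma, 0.0963 in edgeR and 5.42e-08 in DESeq2, so limma and edgeR did not call the targeted gene itself at 0.05. Epcam, the sort marker, was also lower in Terf1_flox cells (2081 ± 802 against 4671 ± 363, SD, n = 3 each), with no overlap, an adjusted p of 0.139 in limma and of 0.00748 in DESeq2. Terf1_flox replicate 3 stood apart in its Y-linked genes: Eif2s3y was at 1.0 and Ddx3y at 3.0, against at least 394.1 and 123.0 in the other 5 libraries, while Xist was read in all 6. The labels do not say whether each library came from its own mouse, so p-values measure only the spread between libraries, which may be technical.

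The 9 genes were a small share of a distal tubule profile. Their summed level ran from 1608 to 5915 normalized counts per library. The 7 markers each of the thick ascending limb and of the distal convoluted tubule together summed to 330337 to 476729, which is 55.8 to 247 times as much. This ratio holds for the 9 genes only, as a wider list of 22 proximal metabolic markers summed to 13662 to 35141. In this bulk RNA, fewer cells of a type and less RNA per cell cannot be told apart, and the source of the proximal tubule reads was not tested. Of other cell types, 4 of 8 macrophage markers were analysed (142.7 to 346.6 summed), 5 of 6 erythroid markers (150.9 to 833.1), 1 of 6 podocyte markers and 1 of 7 fibroblast markers, and 0 of 7 endothelial markers.

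**Figure D1:**
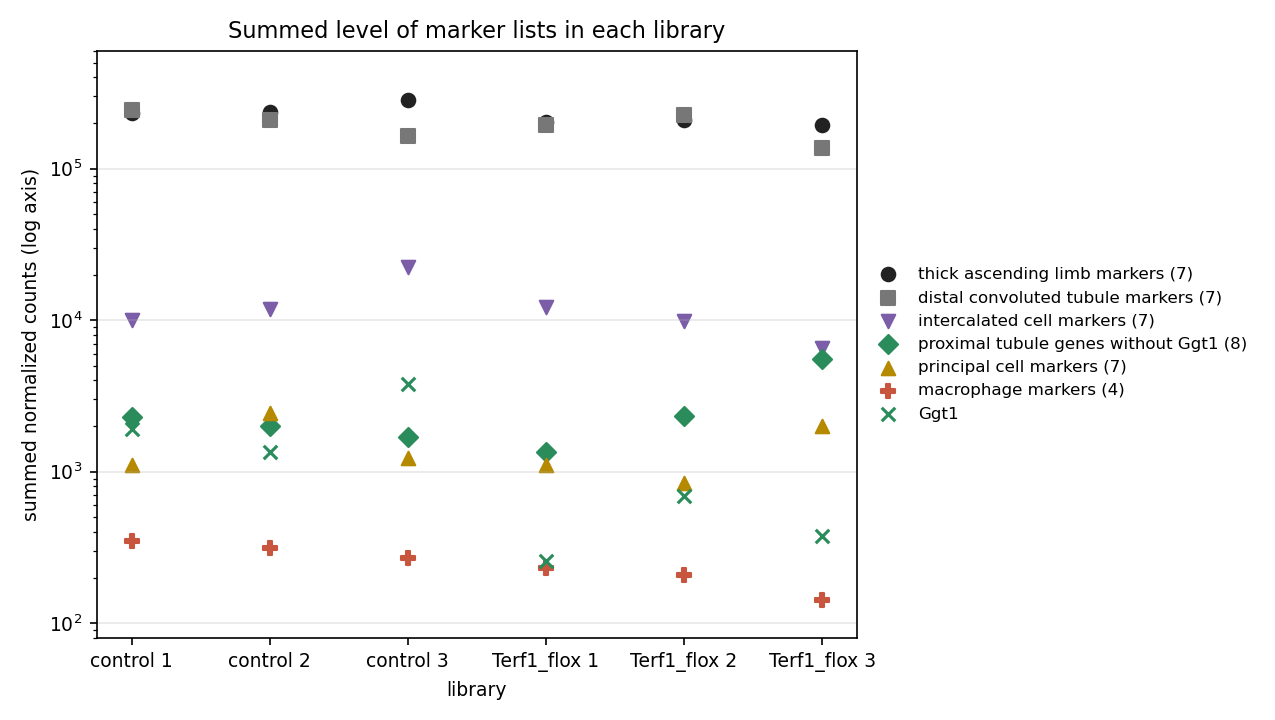
Summed normalized counts (log axis) of marker lists in each of the 6 libraries; points are single libraries and the number in brackets is the number of genes summed. The 8 proximal tubule genes without Ggt1 lie between 1351 and 5538, with the highest sum in Terf1_flox replicate 3, and Ggt1 alone is lower in each Terf1_flox library than in any control library.

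Per kilobase of the longest coding transcript, Ggt1 and Fbp1 were the highest of the 9, with medians over the 6 libraries of 471 and 466 normalized counts per kilobase. Slc27a2 followed at 150, Pck1 at 102 and Slc34a1 at 63.7. Slc5a12 (21.7), Slc22a8 (18.8) and Lrp2 (17.6) were close to each other, and Cubn was lowest at 1.13. The ranges over libraries overlapped between each gene and the next in this order. On the same scale Umod, which encodes uromodulin, stood at 30834 and Slc12a3, the thiazide-sensitive cotransporter, at 19333.

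Upstream sequence is shown for Pck1, a gene known to be induced by cyclic AMP, because it holds the cyclic AMP response element. RefSeq (build GRCm38.p6) gave windows for 8 of the 9 genes, 11 windows in all because Ggt1 has 4 start sites. The motif CAAAGTCCA for HNF4, sought on both strands in the 250 bases before each start, was in 0 of the 11 windows and in 0.384% of all 32851 windows. The response element TTACGTCA, added after the sequences had been seen, lay before Pck1 and in 0.447% of all windows. A match of letters is a description and no evidence of binding in these cells. The stretch ends at the base before the start site, runs 5′ to 3′ on the gene's strand and has the response element in capitals.

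Pck1, chr2:173152873-173153072, plus strand: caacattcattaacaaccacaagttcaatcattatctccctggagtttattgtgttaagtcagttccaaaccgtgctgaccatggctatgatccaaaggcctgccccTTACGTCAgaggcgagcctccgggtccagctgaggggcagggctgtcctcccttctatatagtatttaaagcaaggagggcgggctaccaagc

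The response element of Pck1 begins 93 bases before its start.

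Setting Terf1_flox against control cells addresses how kidney epithelial transcripts differ where Terf1 RNA is reduced. TRF1 protein was not measured in these data. Of the 9 genes, Ggt1 alone separated the groups and was lower in Terf1_flox cells. Slc5a12 was near 0 in 2 of the 3 Terf1_flox libraries. In all genes but Ggt1 the groups overlapped. In limma over 14822 genes, 0 of the 9 were called at an adjusted p below 0.05, where 0.0% of all genes were called (2095 genes had an unadjusted p below 0.05, and edgeR also called 0). DESeq2 called 1 of the 9, Ggt1, where it called 5.21% of all genes. At an unadjusted limma p below 0.05, 2 of 9 were lower (8.43% of all genes) and 0 of 9 higher (5.7% of all genes). The median log2 fold change of the 9 was 0.08 in limma, −0.10 with equal library totals and 0.68 in DESeq2 and in edgeR, beside −0.08, −0.24, 0.02 and 0.03 over all genes tested. In limma without each library it ran from −0.46 (without Terf1_flox replicate 3) to 0.63 (without Terf1_flox replicate 1).

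**Figure D2:**
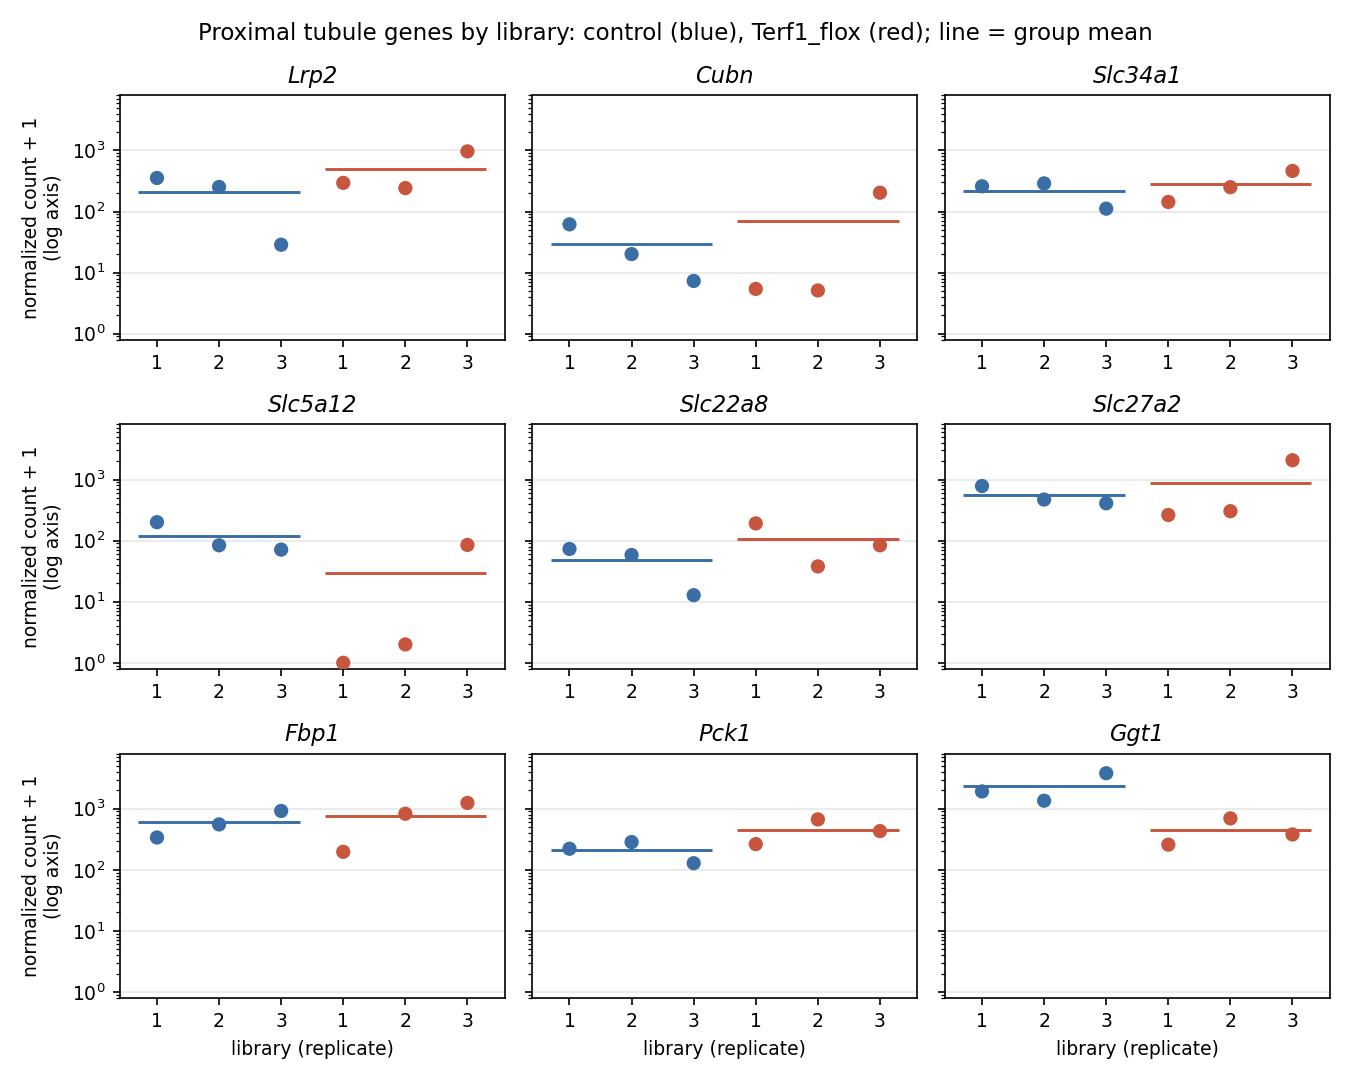
Normalized count plus 1 (log axis) of each gene in the 3 control (blue) and 3 Terf1_flox (red) libraries; each point is a library and each line a group mean. Ggt1 separates the groups, Slc5a12 is at or near 0 in Terf1_flox replicates 1 and 2, and Terf1_flox replicate 3 holds the highest value of Lrp2, Cubn, Slc34a1, Slc27a2 and Fbp1.

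Ggt1 encodes gamma-glutamyltransferase, a surface enzyme of the brush border that starts the breakdown of extracellular glutathione. It held 1916.9, 1349.6 and 3807.2 normalized counts in the control libraries and 256.7, 693.8 and 377.5 in the Terf1_flox libraries. Every Terf1_flox library was below every control library, which was the case for 1 of the 9 genes, while the groups did not overlap for 21.1% of all genes tested. The means were 2358 ± 1287 and 442.7 ± 226 (SD, n = 3 each). The limma log2 fold change was −2.40 ± 0.49 (SE), which is 5.26-fold on that scale. The adjusted p was 4.61e-05 in DESeq2, 0.115 in limma and 0.146 in edgeR. When limma was limited to 10762 genes (mean 50 or more), which called 1.23% of them, Ggt1 was among those called (adjusted p = 0.0343). With 3 libraries against 3, an exact two-sided permutation test can reach no p below 0.1, and it gave that value. Of the marker sums of other cell types, those of the thick ascending limb (251386 ± 28348 in control and 202459 ± 7486 in Terf1_flox) and of the 4 macrophage genes (309.7 ± 38.0 and 193.5 ± 45.3) separated the groups in the same direction. The sum of the 13 fatty acid activation and peroxisomal genes did so too (9693 ± 1195 and 7492 ± 164). A sum follows its most abundant genes. Of the 7 thick ascending limb markers, 4 had a log2 fold change above 0 and 3 below (median 0.04). Of the 3 macrophage genes tested, 1 was above 0 and 2 below. Of the 12 fatty acid and peroxisomal genes tested, 3 were above 0 and 9 below. The part of these sums in the Ggt1 difference was not tested.

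The fold change of Ggt1 lay between −2.78 and −1.98 when each library was left out in limma, and DESeq2 called the gene in each of the 6 such fits, with adjusted p up to 0.0132 (without control replicate 3). Corrected for transcript GC content and length it was −2.17. Gene counts add the transcripts from all Ggt1 start sites, so which of them was lower was not measured. The 100 bases before each of the 4 RefSeq start sites (GRCm38.p6, plus strand, 5′ to 3′) are printed because the single count covers all of them. The third holds the palindromic cyclic AMP response element TGACGTCA, in capitals, which begins 59 bases before its start, was sought after the sequences had been seen, and is in 1.55% of all windows.

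Ggt1, chr10:75564032-75564131: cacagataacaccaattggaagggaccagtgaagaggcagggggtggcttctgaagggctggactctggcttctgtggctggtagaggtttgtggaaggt
Ggt1, chr10:75568562-75568661: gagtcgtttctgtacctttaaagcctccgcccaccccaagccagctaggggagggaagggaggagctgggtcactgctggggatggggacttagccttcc
Ggt1, chr10:75571460-75571559: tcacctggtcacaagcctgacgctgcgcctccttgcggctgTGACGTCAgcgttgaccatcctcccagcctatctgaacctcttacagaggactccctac
Ggt1, chr10:75573395-75573494: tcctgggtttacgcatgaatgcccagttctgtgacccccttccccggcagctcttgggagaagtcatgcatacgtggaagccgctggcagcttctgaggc

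Other genes of glutathione turnover and brush border peptidases were read from a list of 18, of which 12 were tested. None was called in limma and 1 in DESeq2, Gss, the glutathione synthetase, which was lower (633.2 ± 149 in control against 208.6 ± 79.6 in Terf1_flox libraries, log2 fold change −1.63 ± 0.45, DESeq2 adjusted p = 0.0286). Gclc, the catalytic subunit of the rate-limiting step of glutathione synthesis, averaged 1619 ± 569 and 1818 ± 226. The neprilysin gene Mme (log2 fold change 0.35 ± 0.33) and the collectrin gene Cltrn (0.58 ± 0.33) overlapped between groups. The median of the 12 was 0.16, and −0.00024 with equal library totals.

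Slc5a12 encodes the low-affinity sodium-coupled monocarboxylate transporter, which takes up lactate. It held 199.7, 82.9 and 70.3 normalized counts in control libraries and 0, 1.0 and 84.0 in Terf1_flox libraries. Terf1_flox replicate 1 held 0 reads, which allows up to 3.26 normalized counts (3 reads, counting error only), and Terf1_flox replicate 2 held 1 read. Terf1_flox replicate 3 was inside the control range. The fitted log2 fold change was −4.26 ± 1.68 (DESeq2 adjusted p = 0.601, limma adjusted p = 0.304, where DESeq2 gave −2.04), a fitted value that depends on the pseudocount. Without Terf1_flox replicate 3 it was −6.22 in limma (adjusted p = 0.171), and DESeq2 then called the gene (adjusted p = 0.00166).

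Slc5a8, the high-affinity transporter for the same substrates and a member of the wider transporter list, had values in the other direction. It held 9.7, 9.5 and 29.2 normalized counts in control libraries and 184.9, 98.5 and 81.0 in Terf1_flox libraries. The groups did not overlap, and the log2 fold change was 2.93 ± 0.91 (DESeq2 adjusted p = 0.0676, limma adjusted p = 0.218), short of the threshold in both.

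Slc34a1 encodes the sodium-phosphate cotransporter NaPi-IIa, the main carrier of phosphate reabsorption. Its values of 257.8, 287.8 and 110.5 in control against 142.5, 249.4 and 461.5 in Terf1_flox libraries overlapped throughout. Of the 8 genes with reads in every library it had the smallest range, 4.18-fold from lowest to highest. The log2 fold change was 0.33 ± 0.63 (limma adjusted p = 0.851). Without Terf1_flox replicate 3 it was −0.10, and without control replicate 3 it was also −0.10.

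Slc22a8 encodes the basolateral organic anion transporter OAT3. It held 72.1, 57.2 and 11.8 normalized counts in control against 190.4, 36.9 and 83.0 in Terf1_flox libraries. Terf1_flox replicate 1 was the highest, in contrast to most members, and control replicate 3 the lowest. The log2 fold change was 1.16 ± 1.02 (limma adjusted p = 0.657), 0.38 without control replicate 3 and 0.57 without Terf1_flox replicate 1.

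Slc27a2 encodes a very long-chain acyl-CoA synthetase that also serves fatty acid uptake. It held 783.8, 469.9 and 408.1 normalized counts in control libraries. The Terf1_flox libraries held 262.1, 302.8 and 2072.6, so that 2 were below every control library and replicate 3 was above them all. The group means of 553.9 ± 201 and 879 ± 1034 (SD, n = 3 each) differed by less than the Terf1_flox spread. The log2 fold change was 0.04 ± 0.75 (limma adjusted p = 0.987) and −0.91 without Terf1_flox replicate 3. It was also below 0 with control replicate 2 (−0.04) or control replicate 3 (−0.15) left out.

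Lrp2 encodes megalin, the large endocytic receptor of the brush border. It held 353.6, 251.6 and 27.6 normalized counts in control libraries and 293.7, 241.2 and 964.4 in Terf1_flox libraries, a 34.9-fold range. The extremes were control replicate 3 at the bottom and Terf1_flox replicate 3 at the top, and the other 4 libraries lay close together. The log2 fold change of 1.58 ± 0.98 (limma adjusted p = 0.511) was 0.45 when control replicate 3 was left out and 0.96 when Terf1_flox replicate 3 was.

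Cubn encodes cubilin, the partner of megalin that binds albumin and vitamin B12 complexes. It held 60.7, 19.1 and 6.3 normalized counts in control against 4.4, 4.1 and 202.4 in Terf1_flox libraries, where replicates 1 and 2 rest on 4 reads each. Both were below every control library and replicate 3 was above every control library. limma on log2 values gave a log2 fold change of −0.23 ± 1.67 (adjusted p = 0.966), while DESeq2 on the reads gave 1.31 (adjusted p = 0.801). In limma it was −2.00 without Terf1_flox replicate 3, and above 0 without control replicate 1 (0.55), Terf1_flox replicate 1 (0.63) or Terf1_flox replicate 2 (0.66).

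Partners of these receptors came from a list of 10, all tested. None was called in limma, and 2 were called lower in DESeq2. Lrpap1 is the chaperone that keeps megalin free of ligand on its way to the surface. Lrpap1 averaged 1716 ± 452 in control against 451.1 ± 115 in Terf1_flox libraries. Its limma log2 fold change was −1.92 ± 0.36, which is 3.79-fold on that scale (DESeq2 adjusted p = 5.04e-05, limma adjusted p = 0.0931). Ap2m1, the cargo-binding subunit of the clathrin adaptor AP-2, averaged 2728 ± 1099 and 1208 ± 293 (−1.13 ± 0.35, DESeq2 adjusted p = 0.0289; −0.66 with GC content and length corrected). Both are expressed in many cell types. Amn, which carries cubilin to the membrane, held between 1.1 and 48.6 normalized counts, and Cltc, the clathrin heavy chain, averaged 1810 ± 574 and 2768 ± 1300. The median of the 10 was −0.30.

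**Figure D3:**
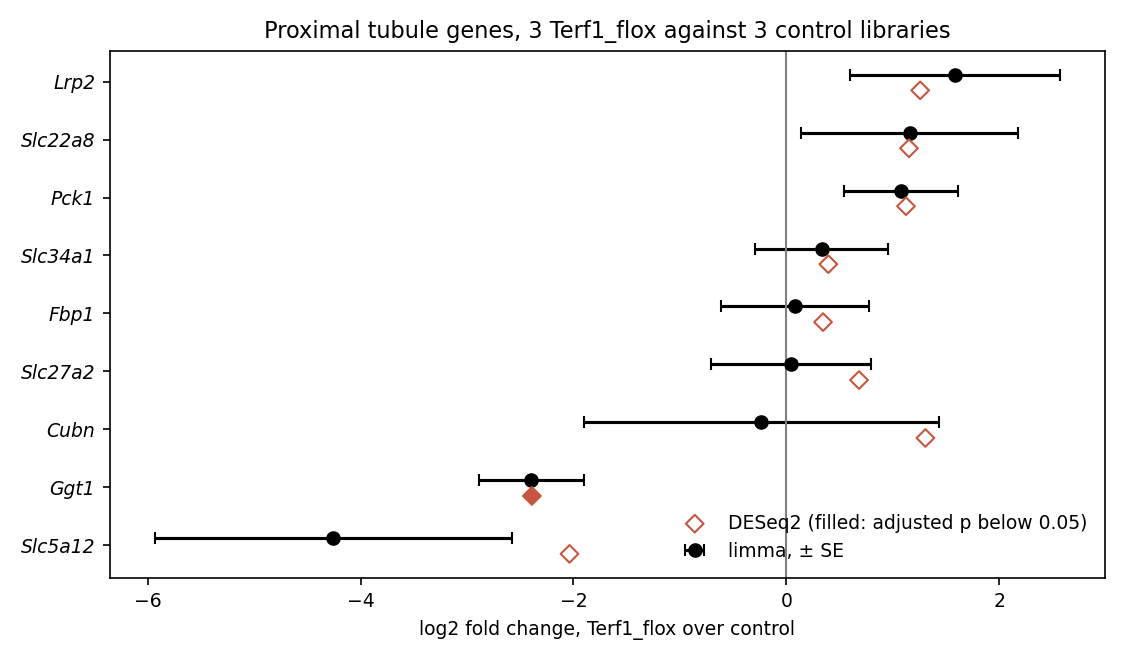
Log2 fold change (Terf1_flox over control) of the 9 genes from limma with its standard error (black) and from DESeq2 on recovered reads (red diamonds, filled where the adjusted p is below 0.05). Ggt1 is the filled diamond, at −2.40 in limma, and Cubn lies on opposite sides of 0 in limma (−0.23) and DESeq2 (1.31).

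Pck1 encodes the cytosolic phosphoenolpyruvate carboxykinase, which commits carbon to gluconeogenesis. It held 219.9, 283.1 and 127.1 normalized counts in control against 262.1, 667.1 and 429.1 in Terf1_flox libraries. Of the Terf1_flox libraries, 2 were above every control library and replicate 1 was below control replicate 2. The means were 210.0 ± 78.5 and 452.8 ± 204 (SD, n = 3 each), with a log2 fold change of 1.08 ± 0.53 (DESeq2 adjusted p = 0.296, limma adjusted p = 0.405). It kept its sign in the fits without each library, from 0.75 to 1.42, and did not pass in any of them.

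Fbp1 encodes fructose-1,6-bisphosphatase, a later step of the same pathway. It held 336.9, 551.9 and 918.8 normalized counts in control against 195.8, 826.2 and 1240.7 in Terf1_flox libraries. The Terf1_flox libraries held both the lowest and the highest value, and the log2 fold change was 0.08 ± 0.69 (limma adjusted p = 0.974). It was −0.46 without Terf1_flox replicate 3, −0.28 without control replicate 1, −0.17 without Terf1_flox replicate 2 and 0.87 without Terf1_flox replicate 1.

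Among 12 other genes of gluconeogenesis and its supply, none was called in limma, and DESeq2 called 3, of which the 2 that were lower are given here. Mdh2, the mitochondrial malate dehydrogenase, held 18315 ± 5790 in control and 7017 ± 1861 in the Terf1_flox group (−1.37 ± 0.27, DESeq2 adjusted p = 0.000236). Got1, the cytosolic aspartate aminotransferase, was also lower, at 3769 ± 1245 and 1306 ± 161 (−1.48 ± 0.30, DESeq2 adjusted p = 0.000196). Both were called in limma among genes with a mean of at least 50 as well, with adjusted p of 0.0343 and 0.0415. G6pc, the glucose-6-phosphatase that releases free glucose, held 162.7, 261.2 and 120.8 in control against 55.5, 6.2 and 562.7 in Terf1_flox libraries, with replicate 3 again the highest.

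Libraries of 1 group differed widely in these genes. Terf1_flox replicate 3 held the highest value of 5 of the 9 genes and 1 of the top 2 values of 8 of the 9, the exception being Ggt1. Terf1_flox replicate 1 and control replicate 3 each held the lowest value of 4 of the 9. Summed without Ggt1, the other 8 reached 2285, 2003 and 1681 normalized counts in control against 1351, 2329 and 5538 in Terf1_flox libraries. In Terf1_flox replicate 3 the distal convoluted tubule markers were at their lowest sum, 136183 against 163330 to 242704 in the other libraries, and the thick ascending limb markers were at their lowest too, 194155 against 204534 to 284099. This held for the sums, which follow the most abundant genes. By the median over genes of the log2 level relative to each gene's mean, neither list was lowest there. For the distal convoluted tubule markers that median was lowest in control replicate 3 (−0.63, against −0.46 in Terf1_flox replicate 3). For the thick ascending limb markers it was lowest in Terf1_flox replicate 1 (−0.26, against −0.15 in replicate 3). The near absence of Y-linked reads also marked Terf1_flox replicate 3. The part of this or of the marker sums in the level of the proximal tubule genes was not tested.

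Averaged over the 9 genes, the log2 level relative to each gene's mean was 0.70, 0.29 and −0.55 in control against −1.07, −0.60 and 1.24 in Terf1_flox libraries. Against the average of the other 8 over the 6 libraries, Pearson's r was 0.947 for Cubn, 0.918 for Slc27a2 and 0.790 for Slc34a1. It was 0.0336 for Pck1, −0.0564 for Slc22a8 and −0.123 for Ggt1. These are descriptions over 6 libraries that share their depth and scaling, and Terf1_flox replicate 3 weighs heavily in them.

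**Figure D4:**
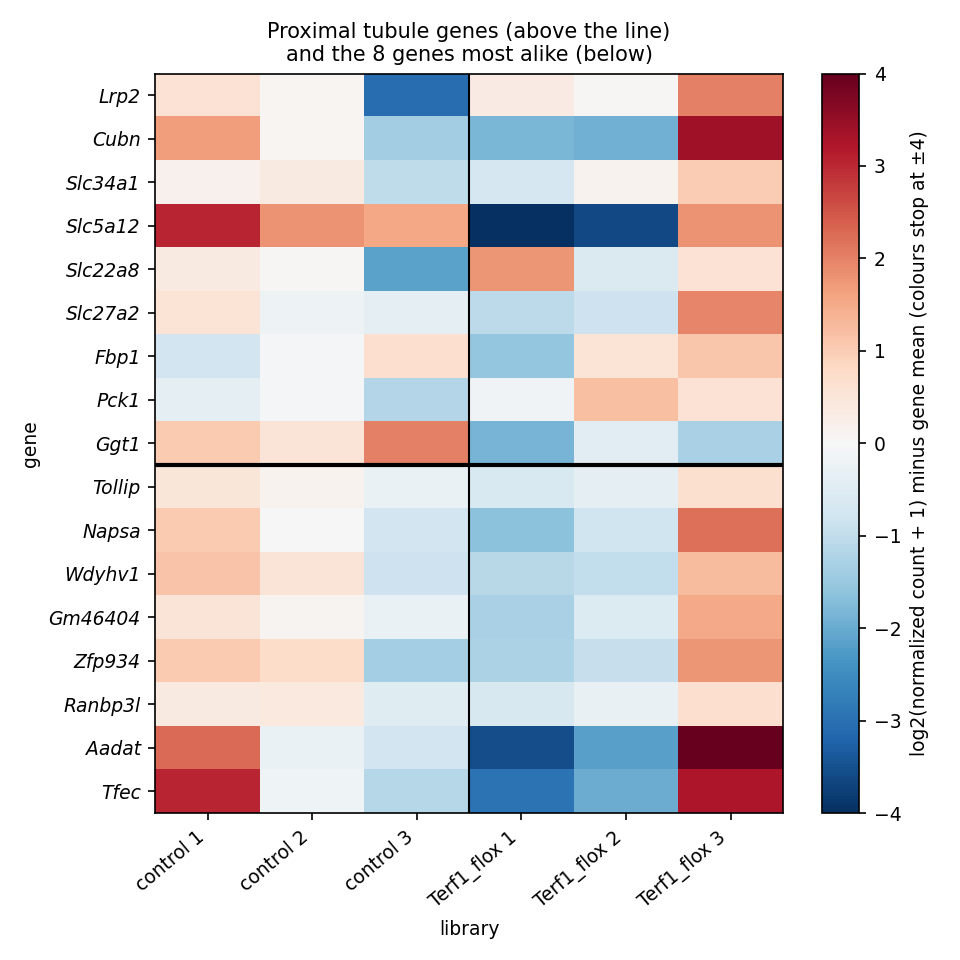
Colours give log2(normalized count + 1) minus the gene's mean over the 6 libraries (red above, blue below) for the 9 genes and, under the thick line, the 8 genes most like their average. Terf1_flox replicate 3 is red for every gene shown but Ggt1, and Ggt1 is red in the 3 control libraries and blue in the 3 Terf1_flox libraries.

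Of 10754 other genes with a mean of at least 50, the 8 most like the average of the 9 were Tollip, Napsa, Wdyhv1, Gm46404, Zfp934, Ranbp3l, Aadat and Tfec, with r from 0.964 to 0.994 over 6 libraries. Without Terf1_flox replicate 3, r was from 0.942 to 0.996. The 8 genes were chosen for their r over all 6 libraries, so both ranges are high by that choice. Napsa, the aspartic protease napsin A, held 1110.2, 529.9 and 311.8 normalized counts in control against 169.7, 311.0 and 2453.1 in Terf1_flox libraries. Aadat, an aminotransferase of the kynurenine pathway, held 733.7, 124.9 and 88.4 in control libraries, at most 32.8 in Terf1_flox replicates 1 and 2 and 3372.0 in replicate 3. Both were highest in Terf1_flox replicate 3, which follows from choosing genes by likeness to an average that peaks there. Napsa is also in the list of proximal metabolic markers.

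Wider lists of the proximal tubule gave calls in both directions. The 7 lists held 114 symbols (some are older names of the same gene), of which 105 were analysed and 99 tested, with 47 log2 fold changes above 0 and 52 below. Their median was −0.03, beside −0.08 over all genes tested, and 0.07 with GC content and length corrected. None of the 99 was called in limma, and DESeq2 called 3 higher and 7 lower, 10 of 99, where it called 5.21% of all genes.

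Among 25 tested transporters, DESeq2 called 1, the sodium-glucose cotransporter Slc5a1, which was lower (2056 ± 483 in control against 971 ± 221 in Terf1_flox libraries, log2 fold change −1.08 ± 0.30, DESeq2 adjusted p = 0.0276). The median of the 25 was 0.61, and 15 were above 0. Slc13a1, the sodium-sulfate cotransporter, averaged 27.9 ± 13.1 and 161.1 ± 81.9 with no overlap (2.45 ± 0.85, limma adjusted p = 0.259), and Slco4c1, an organic anion carrier, averaged 56.7 ± 27.6 and 5.39 ± 7.65 (−3.88 ± 1.35, limma adjusted p = 0.261). Slc9a3, the sodium-proton exchanger NHE3, averaged 762.0 ± 207 and 1147 ± 223 and did not pass either.

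Among 21 tested metabolic markers, DESeq2 called Kap, the androgen-regulated protein of the proximal tubule, which was higher. Kap held 1959.1, 1444.0 and 466.5 normalized counts in control against 4626.2, 2050.5 and 9437.0 in Terf1_flox libraries (log2 fold change 2.03 ± 0.64, DESeq2 adjusted p = 0.00316, limma adjusted p = 0.228; 1.41 with GC content and length corrected). Its highest value was in the library with almost no Y-linked reads. Gpx3, the secreted glutathione peroxidase, had the highest mean of that list and averaged 12074 ± 2309 and 6127 ± 3515 (−1.12 ± 0.38, limma adjusted p = 0.246).

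Fatty acid activation and peroxisomal genes had 12 tested members, 9 of them below 0 (median −0.33). DESeq2 called Acaa1a, a peroxisomal thiolase, which was lower at 530.7 ± 36.5 in control against 136.7 ± 83.6 in Terf1_flox libraries (−2.24 ± 0.65, DESeq2 adjusted p = 0.0388). A near-identical gene, Acaa1b, averaged 82.1 ± 48.8 and 28.7 ± 49.8, and how reads were divided between the pair is uncertain. Acsl1, the long-chain acyl-CoA synthetase, averaged 2724 ± 680 and 2190 ± 140.

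Of 7 transcription factors of proximal identity, DESeq2 called Maf, which was higher (110.4 ± 70.7 in control against 448.5 ± 163 in Terf1_flox libraries, log2 fold change 2.18 ± 0.64, DESeq2 adjusted p = 0.0374). Hnf4a held between 31.6 and 206.4 normalized counts over the 6 libraries, highest in Terf1_flox replicate 3 (log2 fold change 1.04 ± 0.75, limma adjusted p = 0.575). Of the 7, 3 had a log2 fold change above 0 and 4 below. Ppara was lower in every Terf1_flox library than in any control library, and DESeq2 did not call it. Groups did not overlap for 21.1% of all genes tested. The median of the 7 was −0.42, and 0.10 with GC content and length corrected.

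**Figure D5:**
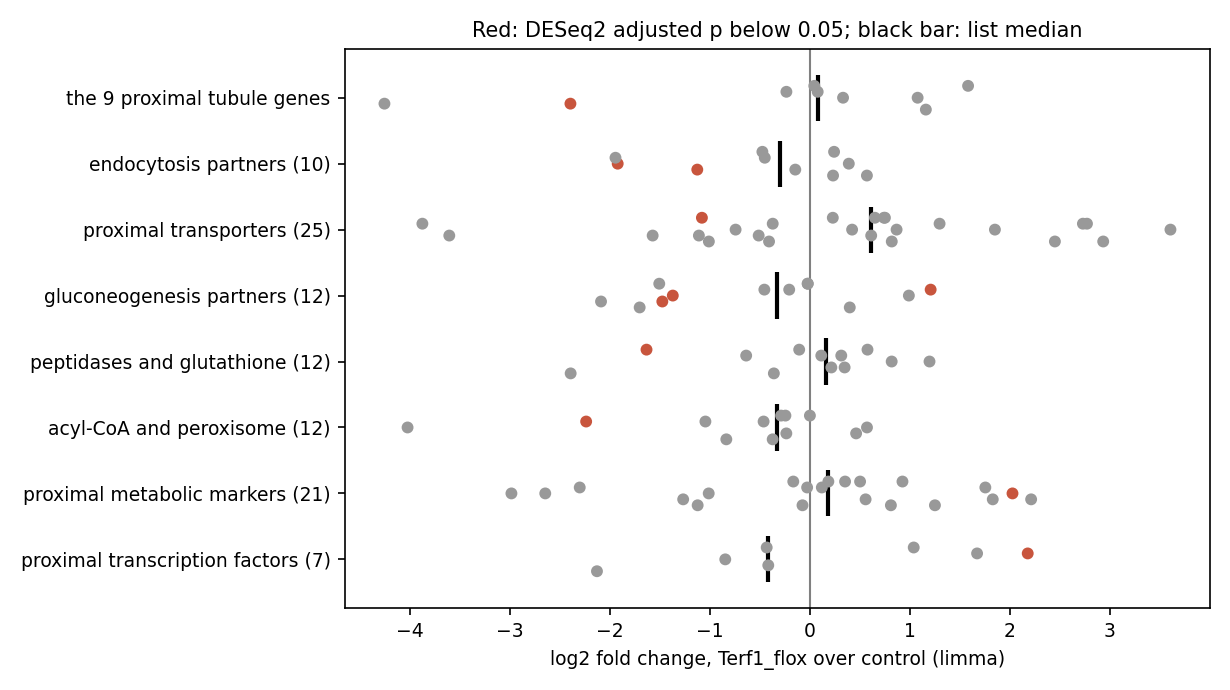
Log2 fold change (limma, Terf1_flox over control) of each tested gene of the 9 and of the 7 wider lists; each point is a gene, red where the DESeq2 adjusted p is below 0.05, and black bars are list medians. The points spread to both sides of 0 in each list, with medians from −0.42 to 0.61.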

How the data were processed

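The values deposited by the authors are a signal: gene counts divided by a library-specific factor; per the submitters' processing notes, DESeq2 and build GRCm39 were used. Which aligner, counting tool and annotation were used is not stated in the labels. In each library 100% of values were whole multiples of a smallest step (tolerance 0.01 of a read), and dividing by it recovered the reads; no row without a gene name was present. The main test was limma 3.58.1 (R 4.3.3, mean-variance trend) on log2(normalized count + 1), over 14822 genes (mean 10 or more), two-sided, Benjamini-Hochberg adjusted, threshold 0.05; fold changes on this scale understate changes of low genes. edgeR 4.0.16 (quasi-likelihood) and DESeq2 1.42.0 (Wald) were run on the recovered reads. Samples were grouped by their titles. Scripts were tested on simulated reads. The limit given for 0 reads covers counting error only, since reads are not independent molecules.

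Genes and lists were chosen with earlier results of these data known, so lists are described by counts and medians and no list was tested. All 9 genes were named; from each list up to 4 genes by smallest limma p and up to 3 by highest mean were eligible, and Amn, G6pc, Umod, Slc12a3 and the sex-linked genes were chosen once their values were known. Terf1 and Epcam check the labels and the sort. Likeness was Pearson's r with the average of the 9, for the 8 highest genes. Transcript length and GC content came from GENCODE M21 (GRCm38), matched for 98.6% of genes; GC content and length were corrected with splines per library. Promoter windows are RefSeq's (GRCm38.p6), printed for sequence only. Alternatives were 2 other pseudocounts, 2 filters, 3 scalings, a replicate block, each library left out, edgeR, DESeq2 and the GC correction. DESeq2 without each library was added after the data were seen. Some results are not reported here.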

Additional observations from a re-analysis of the deposited data

How the results depend on the processing

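Over 17 alternative settings, Lrp2, Slc22a8 and Pck1 stayed above 0 and Slc5a12 and Ggt1 below 0. Other directions did not hold. Cubn was at 0.16 with quantile normalization, 1.30 in edgeR and 1.31 in DESeq2, and ran from −2.00 to 0.66 when each library was left out in limma. With equal library totals Slc27a2 was at −0.13 and Fbp1 at −0.10. Leaving out each library, Slc27a2 ran from −0.91 to 0.58, Fbp1 from −0.46 to 0.87 and Slc34a1 from −0.10 to 0.75; the cause was not tested. The median of the 9 ran from −0.46 to 0.63 in those fits and was 0.68 in edgeR and in DESeq2.

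Of the 9 genes, 1 (Ggt1) was called among genes with a mean of at least 50, where Cubn is not tested, and 1 in DESeq2; DESeq2 called 1 to 2 when each library was left out. Over all genes, limma called 132 above a mean of 50, then 45 with equal library totals and 8 with quantile normalization, and DESeq2 called 772; limma without each library called 0. Equal totals moved the median of all genes by −0.17, quantile normalization by 0.13, equal upper quartiles by 0.11 and edgeR by 0.10. Of genes at an unadjusted p below 0.05, 40.3% were higher; equal totals gave 25.4% and upper quartile scaling 50.4%.

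With the replicate number as a replicate block limma called 0 of the 9 and 0 genes (1884 at an unadjusted p below 0.05); Ggt1 then had an adjusted p of 0.245. Deviations of equal-numbered libraries correlated at −0.0486, 0.00013 and −0.0069, and those of unequal-numbered libraries at −0.028 to 0.039. No shared deviation by replicate number was seen, which does not settle whether the samples were paired. Low levels limit precision: Cubn and Slc5a12 rest on 0 to 4 reads in 2 Terf1_flox libraries.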
